A study of Mus musculus with 4 samples.

Results

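The p53 gene *Trp53*, its negative regulators *Mdm2* and *Mdm4* and 7 listed target genes (*Ccng1*, *Trp53inp1*, *Sesn1*, *Zmat3*, *Aen*, *Phlda3* and *Fas*) were followed in MLL-AF9 leukemic stem cells with and without the tetraspanin CD37. The members were taken by gene symbol, and all 10 were present among the 17104 genes of the expression table. The libraries came from 2 CD37 fl/fl and 2 CD37 -/- samples of bone marrow cells sorted as YFP+, c-kit+ at week 6 of the secondary transplantation. Both groups descended from lineage-negative bone marrow cells of mice with floxed *Cd37* alleles and a tamoxifen-dependent Cre driven from the ubiquitous Rosa26 locus, infected with a retrovirus that carries MLL-AF9 and YFP and transplanted into irradiated, young adult C57 males. The CD37 -/- group was made with tamoxifen, and the CD37 fl/fl group received corn oil, so that agent and deletion differed together between the groups, whereas Cre, the retrovirus and the transplantation were shared. Whether a library held cells of 1 mouse or of several is not given in the sources used here, and the p-values measure the spread between these samples, which may be technical in part.

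p53 is a transcription factor that is held at low protein levels by Mdm2, the ubiquitin ligase that marks it for degradation, and by Mdm4, a related protein that masks its activation domain. DNA damage, oncogene signals and ribosomal stress release p53 from both, after which it binds paired half-sites in the DNA and activates genes for growth arrest, cell death, repair and metabolism. *Mdm2* is itself one of these targets, which closes a feedback loop. In leukemias with MLL fusions the p53 gene is usually not mutated, and the interplay with Mdm2 and Mdm4 acts at the protein level, which mRNA does not measure.

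The libraries held between 15139063 and 22562837 recovered reads. *Cd37*, the deleted gene, was measured at 56.6 and 46.8 FPKM in CD37 fl/fl cells and at 23.2 and 22.9 FPKM in CD37 -/- cells, a log2 fold change of -1.15 ± 0.23 (SE) with an adjusted p of 0.130 by limma. Values are for the whole gene, and the deleted exons were not measured apart. Summed levels of the leukemia cell markers, most of them from *Elane*, lay between 3917 and 4187 RPKM over exons (recovered reads per kilobase of exon, scaled to library depth) in the 4 libraries, with 8 of 9 listed genes in the table and *Itgam* not analysed here. *Kit*, the gene of the receptor used in the sort, was at 1.58 and 2.99 in CD37 fl/fl against 3.02 and 4.00 in CD37 -/- on that scale, and *Hoxa9* lay at 56.3 to 67.9. Within the list the genes lay in different directions, with *Kit*, *Meis1* and *Ptprc* above in both CD37 -/- libraries (log2 fold changes 0.50, 0.59 and 1.40) and *Mpo* below in both (-1.26). Of all genes tested, 42.2% were above in both CD37 -/- libraries and 18.6% below in both. Summed late neutrophil markers were 53014 and 10486 in CD37 fl/fl against 45868 and 28650 in CD37 -/- on the same scale, so that CD37 fl/fl replicate 2 was the lowest. Of these 8 genes, 4 were higher in both CD37 -/- libraries, beside 42.2% of all genes tested. Summed macrophage and dendritic cell markers, most of them from *Cd74*, were highest in CD37 fl/fl replicate 1, at 1025 against 69.6 to 195 in the others. *H2-Aa*, *C1qa*, *C1qb* and *C1qc* were also highest in that library, whereas *Adgre1* was highest in CD37 -/- replicate 2. *Vcam1* was the 1 gene of this list above in both CD37 -/- libraries (log2 fold change 2.32). Erythroid markers were 91.2 and 8.23 in CD37 fl/fl against 922 and 238 in CD37 -/-. Each of the 7 erythroid genes in the table was higher in both CD37 -/- libraries, beside 42.2% of all genes tested. T and NK cell markers, with 2 of 6 in the table, stayed at or below 0.271 and at most 9 reads. Of the stroma and endothelium list, *Cxcl12* and *Kdr* were at 0 in 3 of the 4 libraries. *Col1a1*, *Col1a2* and *Cdh5* had between 1 and 20 reads in each library. *Pecam1* lay at 12.6 to 24.7 RPKM over exons and made up most of the sum of that list. B cell markers summed to 37.9 to 70.9, megakaryocyte markers to 5.36 to 19.5, and stroma and endothelium markers to 12.7 to 24.9. The part of these other cells in the values of the p53 genes was not tested, and in bulk RNA fewer cells of a type and less RNA per cell cannot be told apart.

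No gene passed the threshold of an adjusted p under 0.05 in the comparison of CD37 -/- with CD37 fl/fl. This held for 0% of the 11774 genes tested by limma on log2(FPKM + 0.1), with a smallest adjusted p of 0.107, and for 0% of 13056 genes by limma-voom on the recovered reads. At an unadjusted p under 0.05, limma counted 2606 genes, 1946 of them higher in CD37 -/- (16.5% of those tested) and 660 lower (5.61%). The median of all genes lay at a log2 fold change of 0.23, and this shift followed the scaling. It was -0.03 after quantile normalization, 0.07 after division by the upper quartile and 0.55 after rescaling to TPM, and the share of higher genes among those with an unadjusted p under 0.05 went from 74.7% to 47.5%, 54.9% and 93.3%. Fold changes are on the log2(FPKM + 0.1) scale, which understates those of low genes, and each can be read against the median of 0.23.

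Among the p53 genes, 0 of 10 passed the adjusted threshold by either test, so the following is a description of values. All 10 log2 fold changes were above 0, as were those of 7595 of the 11774 genes tested. Of the 10, 9 were above the median of all genes, and the median over the members was 0.61. The libraries of the groups did not overlap for 7 members, *Trp53*, *Mdm2*, *Mdm4*, *Ccng1*, *Trp53inp1*, *Zmat3* and *Aen*, all with both CD37 -/- libraries above, a position held by 42.2% of all genes tested. Of these 7, *Zmat3* passed the filter of 0.1 FPKM only through its CD37 -/- libraries, with means of 0.060 FPKM in CD37 fl/fl and 0.147 FPKM in CD37 -/-. The groups overlapped for *Sesn1*, *Phlda3* and *Fas*. At an unadjusted p under 0.05 stood 4 members (*Mdm2*, *Ccng1*, *Trp53inp1* and *Aen*) by limma, against 16.5% of all genes. limma-voom added *Mdm4* and *Zmat3* for 6 members, against 19.1% of all genes. The limma count of 4 was 2 after quantile normalization, where 9.13% of all genes tested stood higher at that p. With single libraries left out, the log2 fold change ranged from 0.52 to 0.68 for *Mdm2* and from 0.68 to 0.82 for *Aen*. It ranged from 0.65 to 0.97 for *Ccng1* and from 0.77 to 1.82 for *Trp53inp1*.

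**Figure D1:**
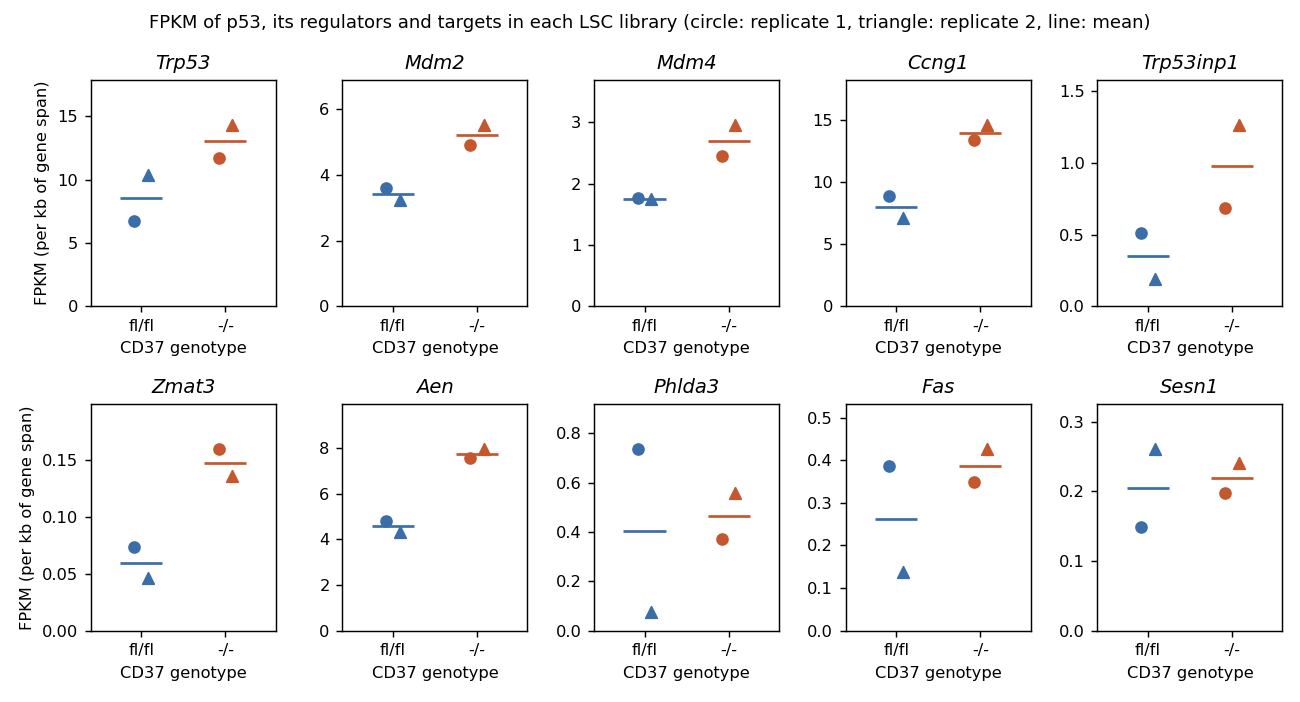
FPKM of the 10 p53 genes in each of the 4 libraries, 1 panel per gene, with points for single libraries and bars for the group means. The 7 genes whose CD37 -/- points both lie above the CD37 fl/fl points include Trp53, Mdm2 and Mdm4, while the points of Sesn1, Phlda3 and Fas overlap.

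**Figure D2:**
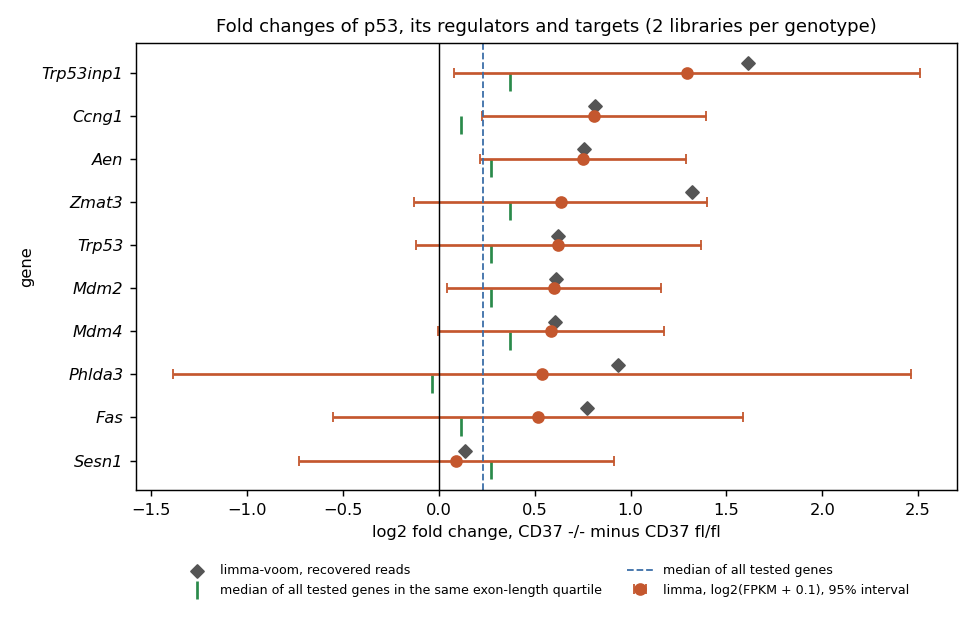
Log2 fold change of CD37 -/- over CD37 fl/fl for each p53 gene on the log2(FPKM + 0.1) scale, with 95% confidence intervals from limma and the median of all tested genes (0.23) as a dashed line. All 10 estimates lie above 0 and Sesn1 alone lies below the dashed line, and the intervals of 4 genes exclude 0 without correction for the number of genes tested.

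*Trp53* (chr11:69580359-69591873, plus strand, GRCm38) encodes p53 itself. It was measured at 6.77 and 10.4 FPKM in CD37 fl/fl and at 11.7 and 14.3 FPKM in CD37 -/- cells, from 1194 to 3729 reads. Both CD37 -/- libraries were the higher ones, although the distance between the CD37 fl/fl replicates was larger than that between the groups' nearest libraries. The log2 fold change was 0.62 ± 0.29 (SE), with an adjusted p of 0.272 by limma, and it was 0.32 without CD37 fl/fl replicate 1 and 0.93 without CD37 fl/fl replicate 2. The annotation also holds processed copies of *Trp53* and *Mdm4*, with which reads may be shared. *Wrap53*, a telomerase and Cajal body factor gene on the opposite strand, starts 103 bases from *Trp53* and was lower in both CD37 -/- libraries, at 2.58 and 2.53 FPKM in CD37 fl/fl and 2.15 and 1.83 FPKM in CD37 -/- (log2 fold change -0.35 ± 0.23 SE, limma adjusted p = 0.387). The groups did not overlap for the divergent pair in either direction, and the level of *Wrap53* relative to *Trp53* per exon length was 1.20 and 0.768 in CD37 fl/fl against 0.576 and 0.403 in CD37 -/-.

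*Mdm2* (chr10:117688875-117710758, minus strand, GRCm38) and *Mdm4* (chr1:132959484-133030561, minus strand) encode the inhibitors of p53. *Mdm2* stood at 3.60 and 3.23 FPKM in CD37 fl/fl and at 4.93 and 5.52 FPKM in CD37 -/-, a log2 fold change of 0.60 ± 0.22 (SE) with an adjusted p of 0.208 by limma. *Mdm4* stood at 1.77 and 1.75 FPKM against 2.45 and 2.96 FPKM, a log2 fold change of 0.58 ± 0.23 (SE) with an adjusted p of 0.228. The CD37 fl/fl replicates of *Mdm4* were nearly equal, and for both genes each CD37 -/- library exceeded each control. Left out in turn, single libraries moved *Mdm2* between 0.52 and 0.68 and *Mdm4* between 0.45 and 0.72.

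Promoter sequences are shown here because activation by p53 runs through paired copies of a half-site of 10 letters. RefSeq promoter windows (GRCm38.p6, from 250 bases before to 50 bases after a transcript start) were at hand for 8 of the 10 members, in 11 windows, and were searched with the p53 consensus half-site, which reads the same on both strands. A half-site lay in the windows of 5 members, *Trp53*, *Mdm2*, *Ccng1*, *Aen* and *Sesn1*, and in none of *Mdm4*, *Phlda3* and *Fas*. Of all 32851 windows, 8.36% held one, and of the 27025 genes with a window, 9.55% did. No member window held 2 half-sites 0 to 13 bases apart, the form of a full site, which 0.0731% of all windows did, *Cdkn1a* among them. *Zmat3* and *Trp53inp1* were not searched. A match says only that these letters lie in the window. Sequence outside the windows and sites that differ from the consensus by a letter were not searched, so a missing match does not mean that a gene lacks a p53 site. Of the 2 *Cdkn1a* half-sites, the one nearer to the start is printed, and the other begins 73 bases before the start. The matches of the members are shown with 10 bases on each side, on the strand of the gene, with the half-site in capitals.
Trp53, 75 bases before the start, chr11:69580274-69580303, plus strand: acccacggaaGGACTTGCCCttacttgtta
Mdm2, 186 bases before the start, chr10:117710925-117710954, minus strand: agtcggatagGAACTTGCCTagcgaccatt
Ccng1, 185 bases before the start, chr11:40755452-40755481, minus strand: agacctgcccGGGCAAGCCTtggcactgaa
Aen, 121 bases before one start and 10 bases after another, chr7:78895927-78895956, plus strand: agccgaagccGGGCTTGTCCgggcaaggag
Sesn1, 173 bases before the start, chr10:41887256-41887285, plus strand: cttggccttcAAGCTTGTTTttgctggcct
Cdkn1a, for comparison, 51 bases before the start, chr17:29090918-29090947, plus strand: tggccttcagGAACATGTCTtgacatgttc
The *Trp53* match lies in the 103 bases between *Trp53* and *Wrap53*, so the windows of both genes hold it. Of the 5 members with a half-site, *Sesn1* was the one whose groups overlapped. The groups did not overlap for *Mdm4*, which had no match, and overlapped for *Cdkn1a*, which had the full site. Half-sites also lay in the windows of *Bax* and *Wrap53*, which were lower in both CD37 -/- libraries, and of *Ppm1d*, whose groups overlapped. A link between the matches and the expression values was not tested.

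*Ccng1* (chr11:40748552-40755311, minus strand, GRCm38), which encodes cyclin G1, a partner of protein phosphatase 2A in the control of Mdm2, was measured at 8.84 and 7.09 FPKM in CD37 fl/fl and at 13.3 and 14.6 FPKM in CD37 -/- cells. The log2 fold change was 0.81 ± 0.23 (SE), with an adjusted p of 0.171 by limma. *Aen* (chr7:78895854-78911209, plus strand), the apoptosis-enhancing nuclease, was measured at 4.79 and 4.35 FPKM against 7.55 and 7.95 FPKM, a log2 fold change of 0.75 ± 0.21 (SE) with an adjusted p of 0.170. The replicates of *Aen* lay close together in both groups, and left-out libraries moved it between 0.68 and 0.82 only. Both genes were read deeply, from 831 reads for *Ccng1* and from 1128 for *Aen* in the lowest library.

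*Trp53inp1* (chr4:11156431-11174379, plus strand, GRCm38) encodes a stress protein that promotes p53 phosphorylation and autophagy. Its log2 fold change was 1.29 ± 0.48 (SE), the largest of the 10 members on this scale, with an adjusted p of 0.211 by limma, from 0.509 and 0.193 FPKM in CD37 fl/fl to 0.688 and 1.26 FPKM in CD37 -/-. The replicates within each group were far apart, from 60 reads in CD37 fl/fl replicate 2 to 513 in CD37 -/- replicate 2, and left-out libraries moved the value between 0.77 (without CD37 fl/fl replicate 2) and 1.82 (without CD37 fl/fl replicate 1). It did not rank first without CD37 fl/fl replicate 2, where *Trp53* was at 0.93, or with a pseudocount of 1, where it was at 0.54 and *Ccng1* at 0.74. *Zmat3* (chr3:32334792-32366014, minus strand), an RNA-binding zinc finger protein, was near the detection limit at 0.0731 and 0.0462 FPKM against 0.159 and 0.136 FPKM, from 25 to 96 reads. Its log2 fold change was 0.64 ± 0.30 (SE), with an adjusted p of 0.274. The mean of *Zmat3* was 0.104 FPKM, just over the filter of 0.1, which it passed through the CD37 -/- libraries, and the pseudocount of 0.1 is of the size of its values. The fold change of *Zmat3* was 1.32 by limma-voom on recovered reads, 0.31 after quantile normalization and 0.11 with a pseudocount of 1.

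The groups overlapped for the 3 remaining targets. *Fas* (chr19:34290666-34327772, plus strand, GRCm38), the death receptor, was at 0.387 and 0.137 FPKM in CD37 fl/fl and 0.349 and 0.425 FPKM in CD37 -/- (log2 fold change 0.52 ± 0.42 SE, limma adjusted p = 0.479). *Phlda3* (chr1:135766119-135769136, plus strand), a repressor of AKT signaling, was at 0.735 and 0.0765 FPKM against 0.374 and 0.556 FPKM, from 4 to 38 reads (0.54 ± 0.76 SE, limma adjusted p = 0.684). For both genes CD37 fl/fl replicate 2 was the lowest library, and without it the log2 fold changes became -0.003 and -0.58. The same library was the lowest for 8 of the 10 members, all but *Trp53* and *Sesn1*, and for the summed late neutrophil and erythroid markers. Without it the median over the members was 0.55 and 8 of 10 stayed above 0, and the part of those cells in these values was not tested. *Sesn1* (chr10:41809935-41908424, plus strand), a stress-induced inhibitor of mTORC1, was at 0.149 and 0.260 FPKM against 0.198 and 0.241 FPKM, with a log2 fold change of 0.09 ± 0.32 (SE) and an adjusted p of 0.886. The 95% interval for *Sesn1* ran from -0.73 to 0.91, and its sign changed without CD37 fl/fl replicate 1 or CD37 -/- replicate 2 and under 2 other scalings (-0.25 after quantile normalization and -0.03 after division by the upper quartile).

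To compare levels between genes, reads were divided by exon length. *Trp53* was the most abundant at 24.6 ± 7.19 (SD, n = 2) RPKM over exons in CD37 fl/fl and 37.2 ± 5.13 in CD37 -/- cells. *Ccng1* followed at 15.5 ± 2.48 and 27.0 ± 1.62, *Mdm2* at 14.8 ± 1.20 and 22.6 ± 1.77, *Aen* at 12.2 ± 0.908 and 20.6 ± 0.701, and *Mdm4* at 8.53 ± 0.132 and 13.0 ± 1.72. Below these lay *Fas* at 4.76 ± 3.23 and 7.00 ± 0.954, and *Sesn1* at 5.10 ± 1.93 and 5.45 ± 0.743. The least abundant were *Trp53inp1* at 0.983 ± 0.630 and 2.71 ± 1.13, *Phlda3* at 0.795 ± 0.913 and 0.904 ± 0.250, and *Zmat3* at 0.164 ± 0.0534 and 0.404 ± 0.0454. Over the 4 libraries the ranges of neighbours in this order overlapped except between *Mdm4* and *Fas* and between *Sesn1* and *Trp53inp1*.

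Ratios within a library do not depend on its scaling. The ratio of *Mdm2* to *Trp53* per exon length was 0.804 and 0.471 in CD37 fl/fl against 0.635 and 0.583 in CD37 -/-, and that of *Mdm2* to *Mdm4* was 1.82 and 1.66 against 1.81 and 1.67. Both ratios overlapped between the groups. *Aen* relative to *Mdm2* was 0.820 and 0.827 against 0.942 and 0.885, and *Ccng1* relative to *Mdm2* was 1.10 and 0.981 against 1.21 and 1.18, without overlap. Relative to *Trp53*, both overlapped, with *Aen* at 0.659 and 0.390 against 0.598 and 0.516 and *Ccng1* at 0.884 and 0.462 against 0.769 and 0.689. These pairs were chosen after their values were seen and carry no test.

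The other genes of the pathway were taken from 4 lists, of which 65 of 69 genes were in the table and 60 were tested. None of the 60 passed the adjusted threshold. At an unadjusted p under 0.05 stood 10 higher and 2 lower genes, against 16.5% and 5.61% of all genes, and the groups did not overlap for 33 genes above and 14 below, against 42.2% and 18.6% of all genes. Their median log2 fold change was 0.36, beside 0.23 for all genes.

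Of the 24 tested genes that control p53, 5 stood at an unadjusted p under 0.05, all higher, beside 16.5% of all genes, and the list's median was 0.44. *Kat5*, the acetyltransferase Tip60, was at 1.08 and 1.44 FPKM in CD37 fl/fl against 2.86 and 3.94 FPKM in CD37 -/- (log2 fold change 1.36 ± 0.28 SE, limma adjusted p = 0.132). *Cdkn2a*, whose p19Arf product inhibits Mdm2 and whose p16Ink4a product inhibits CDK4, was at 0.346 and 0.120 FPKM against 0.871 and 0.600 FPKM (1.40 ± 0.43 SE, limma adjusted p = 0.178), and the values do not separate the 2 products. *Chek1*, the checkpoint kinase, had a log2 fold change of 1.20, *Sirt1*, a deacetylase of p53, of 1.11, and *Kmt5a*, a methyltransferase, of 0.72. Without CD37 fl/fl replicate 1 *Chek1* was at 0.63, and without CD37 fl/fl replicate 2 *Cdkn2a* was at 0.89, while *Sirt1* ranged from 0.77 to 1.45 with single libraries left out. *Atm*, the kinase of the DNA break response, was at 0.0535 and 0.0934 FPKM against 0.0959 and 0.158 FPKM (0.38 ± 0.33 SE). Like *Zmat3*, *Atm* passed the filter through the CD37 -/- libraries, as did *Trp53bp2* (means of 0.075 and 0.180 FPKM). Both are in the counts and the median of this list. *Ppm1d*, a phosphatase induced by p53 that switches it off, was at 1.05 and 0.923 FPKM against 1.04 and 0.933 FPKM, with overlapping groups and a log2 fold change near 0.

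Of the 36 further targets tested, the CD37 -/- libraries were both above for 17 and both below for 11, beside 42.2% and 18.6% of all genes. The 9 cell cycle targets had a median of 0.67. At an unadjusted p under 0.05 stood 2 of them, both higher, beside 16.5% of all genes. These were the mitotic proteins *Gtse1* (1.28 ± 0.29 SE) and *Ckap2* (0.94 ± 0.26 SE). *Cdkn1a*, which encodes the CDK inhibitor p21, overlapped between the groups at 11.8 and 5.57 FPKM in CD37 fl/fl and 7.31 and 10.8 FPKM in CD37 -/-, with a log2 fold change of 0.13 ± 0.43 (SE). The 9 cell death targets had a median of 0.09, below that of all genes. *Ei24*, an endoplasmic reticulum protein linked to autophagy, was at 0.140 and 0.253 FPKM against 1.14 and 2.03 FPKM, a log2 fold change of 2.48 ± 0.39 (SE) with an adjusted p of 0.109 by limma. *Bax*, the pore-forming effector of mitochondrial apoptosis, was lower in both CD37 -/- libraries, at 34.0 and 21.4 FPKM against 18.6 and 14.4 FPKM (-0.72 ± 0.31 SE, limma adjusted p = 0.250), with -0.39 without CD37 fl/fl replicate 1, -1.05 without CD37 fl/fl replicate 2 and -0.34 after TPM rescaling. *Bbc3*, which encodes Puma, was also lower in both (-0.42 ± 0.23 SE), and *Pmaip1*, which encodes Noxa, overlapped (0.09 ± 0.26 SE). Relative to *Mdm2*, *Bax* was at 7.24 and 5.08 in CD37 fl/fl against 2.90 and 1.99 in CD37 -/- per exon length, a pair that was likewise chosen after its values were seen.

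Among the 18 tested targets in repair and metabolism, with a median of 0.17, 2 stood higher and 2 lower at an unadjusted p under 0.05, beside 16.5% and 5.61% of all genes. *Xpc*, the damage sensor of nucleotide excision repair, was at 9.97 and 10.2 FPKM in CD37 fl/fl against 6.07 and 6.03 FPKM in CD37 -/-, a log2 fold change of -0.73 ± 0.20 (SE) with an adjusted p of 0.170 by limma. The replicates of *Xpc* were nearly equal within each group. *Rps27l*, a ribosomal protein paralog whose reads may be shared with close copies, had -0.65 ± 0.26 (SE). *Prkab1*, a subunit of the energy sensor AMPK, had 1.79 ± 0.48 (SE), or 1.18 without CD37 -/- replicate 2, and *Abhd4*, a lipase, had 0.97 ± 0.27 (SE).

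**Figure D3:**
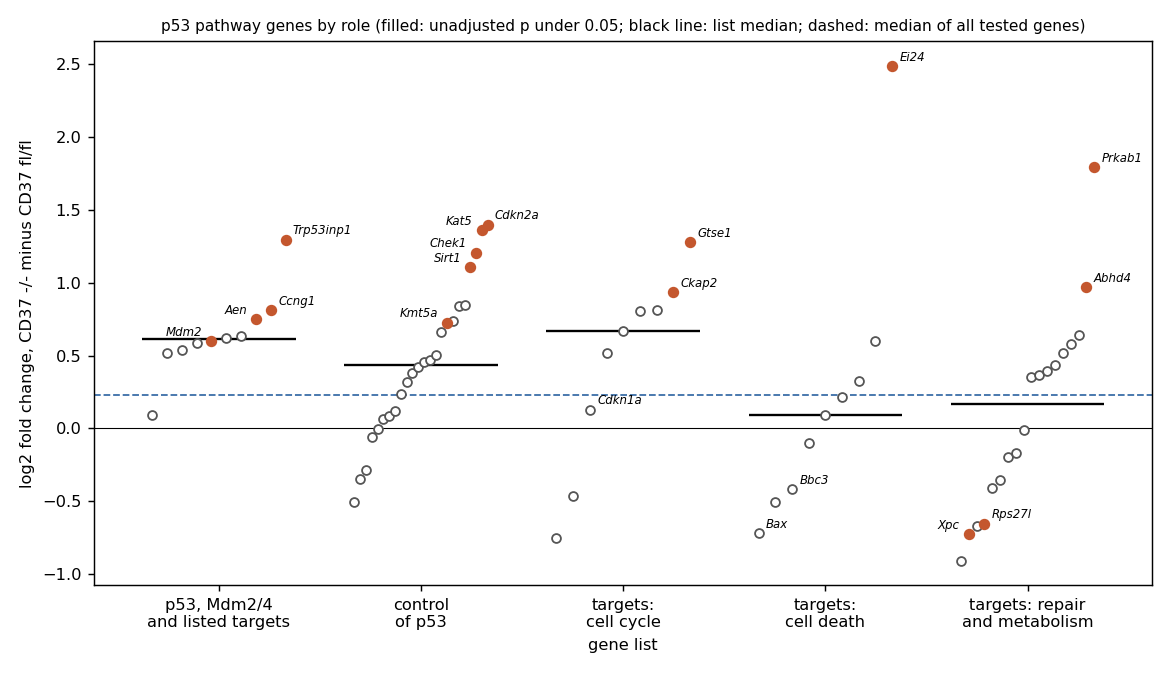
Log2 fold change of CD37 -/- over CD37 fl/fl for the p53 genes and the 4 pathway lists, 1 point per tested gene in order of its value, filled where the unadjusted p is under 0.05, with the list medians as black lines and the median of all tested genes as a dashed line. The cell death list has the lowest median (0.09), with Bax and Bbc3 below 0 and Ei24 at 2.48.

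In profile over the 4 libraries, by the distance between centred log2(FPKM + 0.1) values among 69 genes compared, *Trp53* was most like *Atr* (0.22), *Trp53bp1* (0.22) and *Huwe1* (0.25), and *Mdm2* was most like *Mdm4* (0.12), *Apaf1* (0.14) and *Ddb2* (0.14). This likeness was computed on that scale only, where the pseudocount of 0.1 shrinks the changes of low genes. *Atr* lay at 0.059 to 0.292 FPKM and *Trp53bp1* at 0.107 to 0.437 FPKM. By limma-voom on recovered reads their log2 fold changes were 1.42 and 1.07, and that of *Huwe1* was 0.48, against 0.62 for *Trp53*. *Ddb2* was at 0.86 by limma-voom, *Apaf1* at 0.66 and *Mdm4* at 0.61, against 0.61 for *Mdm2*.

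The log2 fold changes of all genes differed with exon length. Their median was -0.04 for genes with 56 to 1879 exonic bases, 0.12 for 1880 to 3622, 0.27 for 3624 to 5952 and 0.37 from 5953 bases. Against the median of its own length class, 9 of the 10 members were higher and *Sesn1* was lower. From the shortest to the longest class, 48.7%, 58.8%, 70.6% and 80.0% of all tested genes were above 0. Of the 8 other targets in the shortest class, which holds *Bax* and *Rps27l*, 7 were below 0 with a median of -0.66. Of the 16 in the next class, 11 were above 0 with a median of 0.61. The part of exon length in the values of the p53 genes and their targets was not tested.

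**Figure D4:**
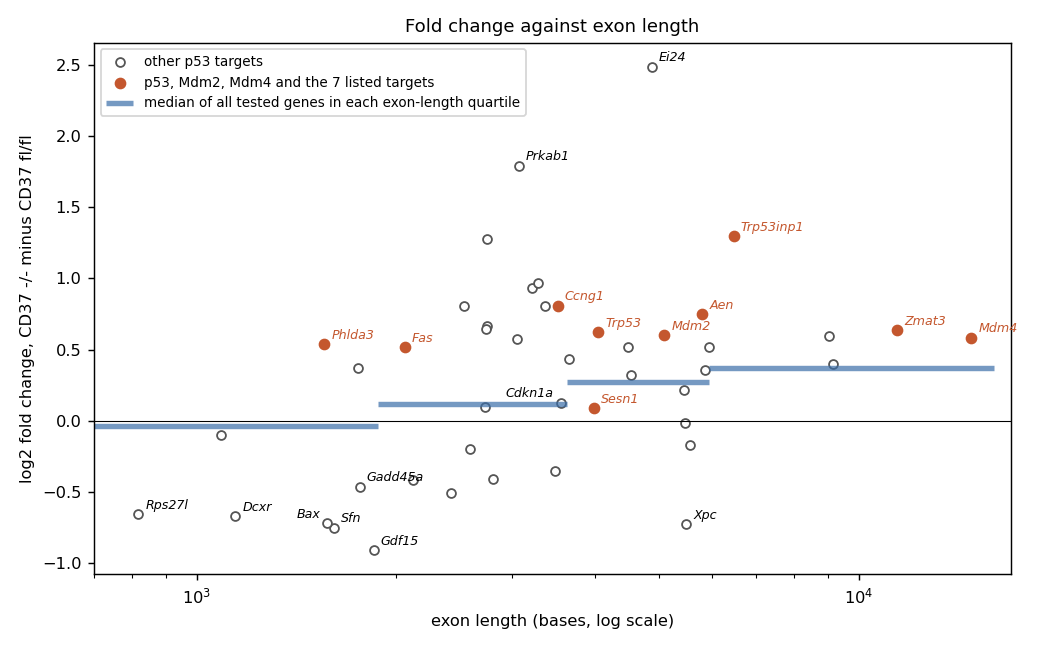
Log2 fold change of CD37 -/- over CD37 fl/fl against exon length (log axis, bases) for the p53 genes and the other tested p53 targets, with horizontal lines at the median of all tested genes in each of 4 exon-length classes, the outer lines being shortened to the plotted range. The class medians run from -0.04 to 0.37, and Bax lies below 0 in the shortest class while Mdm4 and Zmat3 lie above the line of the longest.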

How the data were processed

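YFP+, c-kit+ cells were sorted, and poly(A) RNA was sequenced in strand-specific libraries. The authors deposited 1 FPKM value per gene and library, without pooling. Per the labels, the processing notes name fastp 0.20.1, STAR 2.7.7a, featureCounts 2.0.0, edgeR and mm39, with no role given. The deposited FPKM fit a division by genomic span, introns included: with GENCODE M21 spans (17045 of 17104 genes matched), low values became whole reads (tolerance 0.05) where exon lengths gave the 10.0% of chance, and 16839 genes were whole in all 4 libraries. Long genes with many introns therefore have low FPKM. Coordinates are those of M21 (GRCm38), which the files do not name. Groups were compared with limma 3.58.1 (R 4.3.3; trend, two-sided) on log2(FPKM + 0.1) for the 11774 genes that averaged 0.1 FPKM or more, with Benjamini-Hochberg adjustment over all of them and no block. limma was also applied to recovered reads (voom, mean of at least 10 reads). Other steps ran in Python 3.11.15, and of all steps only the limma fit was tested on simulated data. The members, lists and comparisons were chosen with earlier results of these data known. Named are all members, the pathway genes with an unadjusted p under 0.05 and no overlap between groups, and *Cdkn1a*, *Bax*, *Bbc3*, *Pmaip1*, *Ppm1d*, *Cdkn2a*, *Atm* and *Wrap53* whatever their values. Depth was 15139063 to 22562837 reads, and replicates differed beyond sampling noise (chi-square per degree of freedom 93.4 in CD37 fl/fl and 61.0 in CD37 -/-). Alternatives covered pseudocount, filter, scaling, variance estimation, replicate block, voom and each library left out.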

Additional observations from a re-analysis of the deposited data

How the results depend on the processing

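Under 15 alternatives no p53 gene reached an adjusted p under 0.05 by limma or limma-voom, and the lowest was 0.0759. Of 140 member values, 134 kept their direction. The count of genes at an unadjusted p under 0.05 was 2606 and that of members 4. The member count was 2 after quantile normalization, where 9.13% of all genes tested stood higher at that p, 2 after division by the upper quartile (11.4%), 6 after TPM rescaling (28.8%) and 6 by voom (19.1%), and a filter at a mean of 1 FPKM left 5 members tested. The count of genes was 1167 without CD37 -/- replicate 2. Turned values were *Sesn1* (-0.25 after quantile normalization, -0.033 after upper-quartile division), *Cdkn1a* (-0.053) and *Pmaip1* (-0.088) after upper-quartile division, and *Ppm1d* (0.34) and *Wrap53* (0.016) after TPM rescaling. The cause was not tested. With each library left out, *Sesn1* ranged from -0.18 to 0.36, *Phlda3* from -0.58 to 1.66, *Fas* from -0.0030 to 1.04, *Ppm1d* from -0.089 to 0.086, *Cdkn1a* from -0.41 to 0.67 and *Pmaip1* from -0.16 to 0.35. The lone library of a group was then assumed to vary like the other group. The replicate numbers share no stated origin, and same-numbered libraries did not deviate together (correlation -0.06). With the replicate number as a block, 0 genes passed the adjusted threshold, 2475 had an unadjusted p under 0.05, and 2 members did. With 2 libraries per group no gene passed the adjusted threshold, and *Phlda3* and *Zmat3* rest on under 100 reads in every library.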

Other observations

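Of the listed pathway genes, 5 lay under the filter and were not tested. *Perp*, a membrane protein of p53-dependent cell death, was listed at 0 FPKM in both CD37 fl/fl libraries and at 0.0187 and 0.0293 FPKM in CD37 -/-, at most 8 reads. *Gls2*, the liver-type glutaminase, was at 0.0336 and 0.0037 FPKM in CD37 fl/fl against 0.0725 and 0.0313 FPKM in CD37 -/-, and *Polk*, a translesion polymerase, was at 0.0443 and 0.0606 against 0.0765 and 0.127 FPKM. *Pltp* was at 0.0502 and 0.0539 against 0.0558 and 0.138 FPKM, and *Ppp1r13b*, which encodes the p53 cofactor ASPP1, was at 0.0205 and 0.0246 against 0.0297 and 0.0571 FPKM.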
